A study of Drosophila melanogaster with 30 samples.

Results

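The genes described here are the glutathione transferases of Drosophila melanogaster, chosen as all gene rows whose FlyBase symbol is Gst followed by a capital class letter. There were 35 of them among 17918 genes listed in either of 2 datasets, and all 35 were listed in both. By class they were 11 delta genes (GstD), 14 epsilon genes (GstE), 3 omega genes (GstO), 1 sigma gene (GstS1), 4 theta genes (GstT) and 2 zeta genes (GstZ). Their RNA was measured by sequencing in adult heads taken 22 to 31 h after eclosion, in 6 groups of 5 libraries. The study asked how heads respond when Bchs (Blue cheese, a large scaffold protein of selective autophagy, related to human WDFY3) is overexpressed in glia or in neurons. In the glia dataset the groups were glial overexpression (repo-Gal4/UAS-bchs::HA), a Gal4 control (repo-Gal4/+) and a UAS control (UAS-bchs::HA/+). In the neuron dataset they were neuronal overexpression (nSyb-Gal4/UAS-bchs::HA), a Gal4 control (nSyb-Gal4/+) and a second set of UAS control flies (UAS-bchs::HA/+). The repo driver is active in glia and the nSyb driver in neurons, while the RNA came from the whole head. A head holds neurons, glia, photoreceptors, fat body and muscle, so fewer cells of a type and less RNA per cell cannot be told apart. RNA of the glia dataset was taken up in Trizol and that of the neuron dataset in the buffer of a column kit, so extraction and driver cannot be told apart between datasets, and overexpression was set against controls within a dataset. The labels do not say whether the 5 libraries of a group came from separate cultures, so p-values measure the spread between these samples.

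Glutathione transferases join the tripeptide glutathione to reactive or foreign molecules, which makes them more soluble and easier to export. In insects the delta and epsilon classes expanded by gene duplication and are best known for detoxifying insecticides, plant toxins and products of lipid peroxidation. GstD1 is a widely used reporter of oxidative stress in flies and a target of CncC, the fly counterpart of the mammalian factor NRF2. Omega members act as thiol transferases and dehydroascorbate reductases, the sigma member GstS1 conjugates a lipid peroxidation product in muscle, and zeta members belong to the breakdown of tyrosine. The epsilon member GstE14 is noppera-bo, needed for the synthesis of the moulting hormone ecdysone.

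The labels were checked by bchs itself, which averaged 1207 ± 50.3 CPM (read counts scaled to library size with TMM factors) in glial overexpression, 154.5 ± 67.3 CPM in the repo-Gal4 control and 166.8 ± 83.9 CPM in the UAS control (SD, n = 5 each). In the neuron dataset it averaged 427.8 ± 97.6 CPM in neuronal overexpression, 101.6 ± 16.6 CPM in the nSyb-Gal4 control and 91.3 ± 10.05 CPM in the UAS control. A library held 28685786 to 84208964 counts in genes (glia dataset) or 44017794 to 60266009 (neuron dataset). Markers of neurons, glia, photoreceptors, fat body, muscle, hemocytes and olfactory sensilla were present, as in a head. A pair of libraries of the glia dataset stood apart by transcript length: the length slope, the log2 deviation of a gene from its dataset's median per doubling of exon bases, reached -0.92 in UAS control 2, followed by repo-Gal4 control 3 at -0.62. It was -0.24 in glial overexpression 3 and 5, and between -0.11 and 0.05 in the other 11 libraries. The neuron dataset lay between -0.06 and 0.07. Transferase genes are short, with a median of 881 exon bases (range 725 to 2325) against 1962 over all genes tested in the glia dataset, so the counts of called members in the glia dataset, and the transferase genes described there, are given with and without the 2 libraries.

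The family lies in a few tandem arrays (coordinates are BDGP6.54, from the Ensembl annotation). All 11 delta genes sit at 3R:12364776-12385624, with GstD10, GstD9 and GstD1 on the minus strand and the other 8 on the plus strand. A block of 10 epsilon genes, GstE1 to GstE10, sits at 2R:18396638-18409835, with only GstE10 on the minus strand, while GstE11, GstE12, GstE13 and GstE14 lie apart on 2R. The omega genes are neighbours at 3L:8518885-8524866, the zeta genes at 3R:9455517-9460652, and GstT1 with GstT2 at 2R:9605988-9608350. GstS1 is a single gene at 2R:17093246-17099501, and GstT4 and GstT3 are single genes on X. Reads that aligned to several places were counted apart by the authors' program, so near-identical copies within the arrays are uncertain. Exons of GstO2 overlap se on the opposite strand over 61 bases, those of GstE12 overlap CG3894 over 33, those of GstE9 overlap imd over 40, those of GstT2 overlap CG12926 over 223, those of GstE13 overlap CG18659 over 6, and GstE10 and GstE1 overlap each other over 20. The library kit does not mark strand, so reads in these stretches cannot be assigned by it.

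Levels differed widely across the family. Per kilobase of exon, the mean of the 6 group means was 408 CPM per kb for GstD1 and 334.4 CPM per kb for GstE12, which ranked 214 and 250 among 17626 genes. GstE1 followed at 108.7 CPM per kb and GstE9 at 106.3 CPM per kb. Another 18 members lay between 10 and 100 CPM per kb, 8 between 1 and 10, and 5 below 1: GstD6, GstD5, GstD4, GstD7 and GstE10. GstE10 is the first gene of the epsilon block by position. GstD4 to GstD7 are 4 consecutive genes inside the delta array, flanked by GstD3 at 37.3 CPM per kb and GstD8 at 9.27 CPM per kb. The leading members of the other classes were GstT4 at 89.5 CPM per kb, GstO3 at 69.9, GstS1 at 41.1 and GstZ2 at 15.7. By summed CPM the epsilon class made up 48.6 to 57.3% of the family in the 6 groups and the delta class 20.3 to 26.5%.

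**Figure D1:**
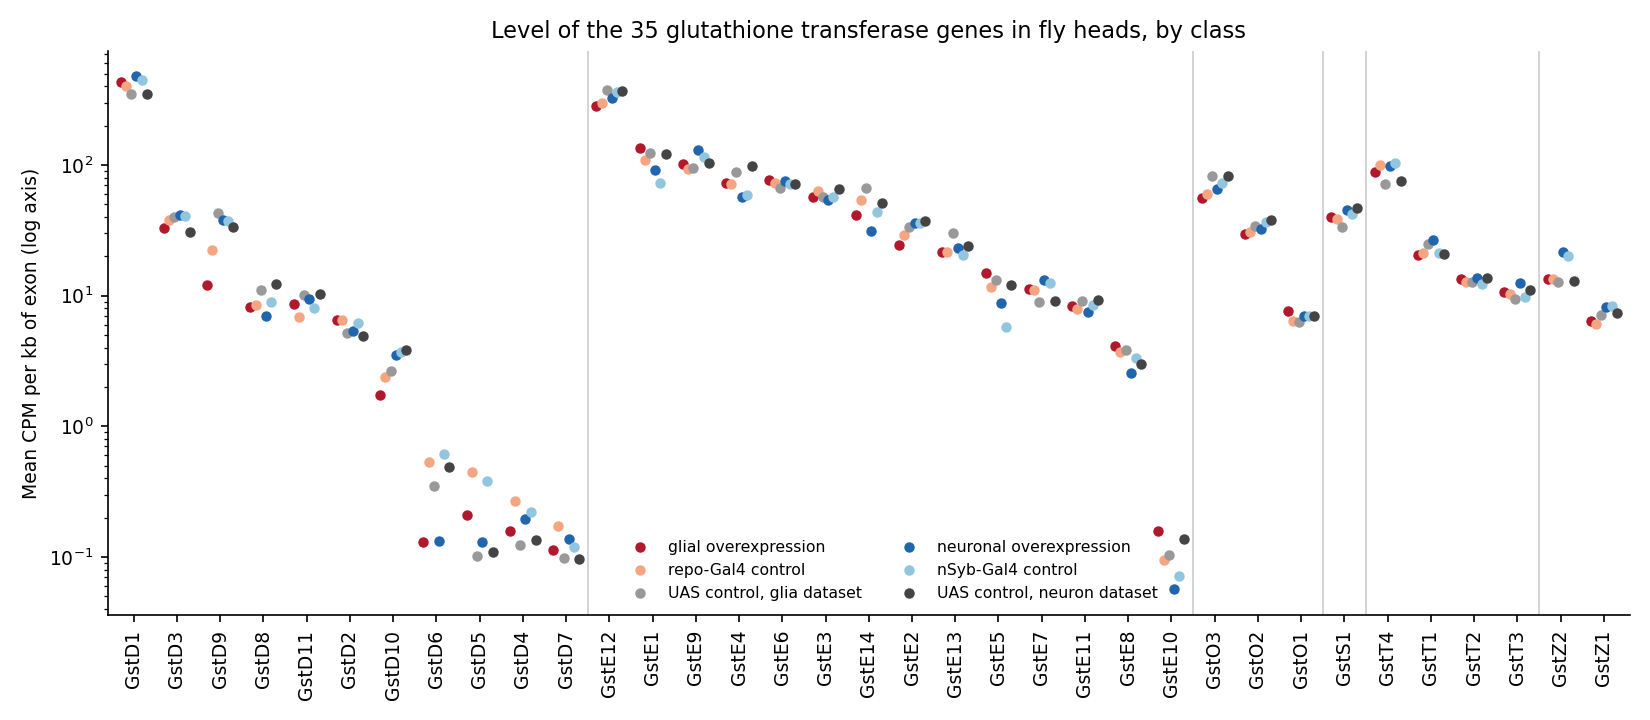
Mean level of each of the 35 genes in each of the 6 groups (points; n = 5 libraries each), in CPM per kb of exon on a log axis, with genes ordered within class by level. GstD1 and GstE12 lead, and 5 members lie below 1 CPM per kb; the group means spread widest in GstD6, GstD5 and GstD9.

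Group means differed little for most members: the highest of the 6 group means was under 1.5 times the lowest in 20 of 35 genes, with GstT2 the flattest at 1.11 times. The widest were GstD6 at 4.73 times, GstD5 at 4.40, GstD9 at 3.51, GstE10 at 2.82 and GstE5 at 2.60. Of these, GstD6, GstD5 and GstE10 rest on few reads. GstS1, the sigma member, was among the even ones: it read 83.4, 87.9, 89.6, 85.1 and 108.9 CPM in glial overexpression, 80.7, 86.8, 99.5, 82.1 and 89.2 CPM in the repo-Gal4 control and 74.3, 86.5, 75.7, 72.1 and 75.2 CPM in its UAS control. In the neuron dataset GstS1 read 92.1, 104.9, 111.4, 96.0 and 106.0 CPM in neuronal overexpression, 86.6, 102.6, 92.5, 102.1 and 97.5 CPM in the nSyb-Gal4 control and 112.7, 111.2, 106.4, 99.6 and 106.7 CPM in the UAS control. With all libraries its overexpression and control libraries overlapped in both datasets, and it was called in no comparison within a dataset. Without UAS control 2 and repo-Gal4 control 3, GstS1 was called higher in glial overexpression than in the UAS control, at 0.30 on the log2 scale (edgeR adjusted p = 0.0125).

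The sum over all 35 genes was nearly the same in the 3 groups of the neuron dataset, 1831 ± 60.5 CPM in neuronal overexpression, 1843 ± 136 CPM in the nSyb-Gal4 control and 1817 ± 50.3 CPM in the UAS control (SD, n = 5 each). In the glia dataset it was 1676 ± 191 CPM in glial overexpression, 1687 ± 444 CPM in the repo-Gal4 control and 1794 ± 1012 CPM in the UAS control. The wide spread of these controls came from single libraries. UAS control 2 held 3604 CPM, while the other 4 UAS controls held 1308 to 1384 CPM. repo-Gal4 control 3 held 2477 CPM, while the other 4 repo-Gal4 controls held 1443 to 1542 CPM. In UAS control 2, 34 of 35 members were above all other 4 libraries of the group, with a median ratio of 2.60 to their mean (range 0.993 to 4.84). In repo-Gal4 control 3 it was 32 of 35, with a median ratio of 1.73 (range 0.812 to 3.29). How many of all genes were highest in these libraries is not given here, so both counts have no background. Without these 2 libraries the sum was 1676 ± 191 CPM in glial overexpression, 1489 ± 45.3 CPM in the repo-Gal4 control (n = 4) and 1342 ± 31.4 CPM in the UAS control (n = 4).

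**Figure D2:**
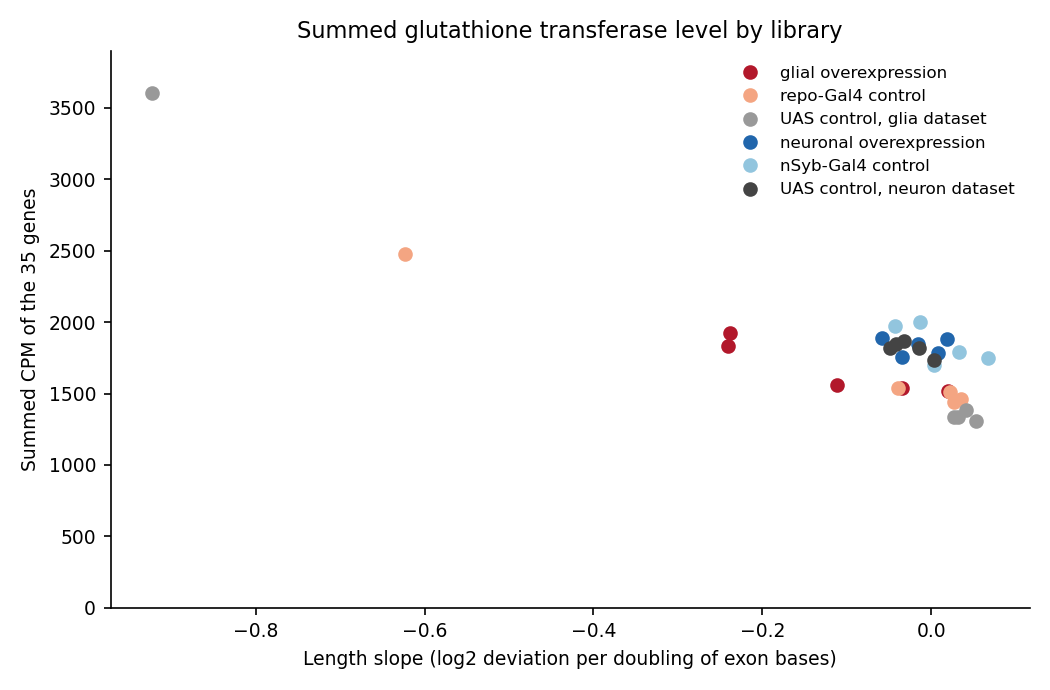
Summed CPM of the 35 genes in each of the 30 libraries (points, coloured by group) against the library's length slope, in log2 deviation per doubling of exon bases. The point at 3604 CPM is UAS control 2 of the glia dataset, slope -0.92, and the point at 2477 CPM is repo-Gal4 control 3, slope -0.62; glial overexpression 3 and 5, at 1836 and 1927 CPM, lie next to them.

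Neuronal overexpression was compared with both of its controls, so as to separate the combination from its parts. Of 35 members, 32 passed the filter on low counts and were tested. GstD4, GstD7 and GstE10 had at most 17 counts in any library and were not. A gene counted as called against both controls when edgeR's quasi-likelihood test gave a Benjamini-Hochberg adjusted p (written q from here on) under 0.05 against each control with the same sign. Log2 fold changes are given ± their standard error, marked SE. This held for 6 members, GstD6, GstD8, GstE14, GstE12 and GstO2 lower and GstT1 higher. That is 18.8% of those tested, against 10.2% of all 10778 genes tested. For lower genes alone it was 5 of 32, or 15.6%, against a background of 5.44%, and for higher genes 1 of 32 against 4.74%. The count is small, and it was 5 or 6 in the 15 fits that each left out 1 library. Each of these 6 genes had its 5 overexpression libraries entirely below or entirely above the 10 control libraries, and the other 29 members overlapped. Selection by this test favours such a separation. The share of all genes that separate in this way is not given here, so the count has no background.

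GstD6, a delta gene at 3R:12377128-12377907 (FBgn0010042) with few reads, had the largest fold change. It was at 0.0989, 0.109, 0.0959, 0.0824 and 0.130 CPM in neuronal overexpression, or 5, 5, 5, 5 and 7 counts. The nSyb-Gal4 control had 0.529, 0.618, 0.446, 0.396 and 0.416 CPM, or 24, 26, 20, 22 and 25 counts. The UAS control had 0.409, 0.374, 0.480, 0.417 and 0.215 CPM, or 20, 18, 24, 25 and 11 counts. Every overexpression library was below every control, including UAS control 5, the lowest of them. The log2 fold change was -2.19 ± 0.26 SE (q = 2.11e-05) against the nSyb-Gal4 control and -1.86 ± 0.27 SE (q = 6.55e-05) against the UAS control. GstD6 had few reads in glial overexpression as well. In the glia dataset's own fit edgeR called it against neither control, as given with that dataset.

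GstD8, a delta gene further along the array at 3R:12380008-12380815 (FBgn0010044), was at 4.51, 5.90, 5.93, 5.90 and 5.82 CPM in neuronal overexpression. The nSyb-Gal4 control had 7.12, 7.72, 7.55, 5.94 and 7.77 CPM, and the UAS control had 10.95, 8.51, 10.55, 10.27 and 9.04 CPM. The groups came in 3 steps, with nSyb-Gal4 control 4 next to the highest overexpression library. The log2 fold change was -0.36 ± 0.10 SE (q = 0.0157) against the nSyb-Gal4 control and -0.81 ± 0.10 SE (q = 8.81e-06) against the UAS control. The nSyb-Gal4 control was itself lower than the UAS control, by -0.45 ± 0.09 SE (q = 0.00261).

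GstE14 (noppera-bo, FBgn0033817, 2R:13239729-13241013) separated all 3 groups. It was at 31.6, 33.4, 32.9, 29.5 and 29.7 CPM in neuronal overexpression, 40.2, 45.2, 40.3, 46.4 and 46.5 CPM in the nSyb-Gal4 control and 53.4, 47.7, 49.2, 52.7 and 54.4 CPM in the UAS control. No library of one group reached into another. The log2 fold change was -0.48 ± 0.06 SE (q = 2.11e-05) against the nSyb-Gal4 control and -0.71 ± 0.06 SE (q = 9.50e-08) against the UAS control, and the nSyb-Gal4 control was at -0.24 ± 0.06 SE (q = 0.00669) against the UAS control.

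GstE12 (FBgn0027590, 2R:24766718-24768172), the second most abundant member per kb of exon, was at 452, 469, 458, 429.5 and 455 CPM in neuronal overexpression. The nSyb-Gal4 control had 469, 472, 507, 532 and 549.6 CPM, and the UAS control had 522, 487, 528, 532 and 496 CPM. The highest overexpression library, number 2, and the lowest nSyb-Gal4 control, number 1, were almost equal. The log2 fold change was -0.16 ± 0.05 SE (q = 0.0469) against the nSyb-Gal4 control and -0.18 ± 0.05 SE (q = 0.0141) against the UAS control. The call against the nSyb-Gal4 control was lost in 13 of 15 leave-one-out fits, with log2 fold changes from -0.19 to -0.13, and stayed only without nSyb-Gal4 control 1 or 2. Against the UAS control it was lost without neuronal overexpression 4 (-0.15), UAS control 3 (-0.16) or UAS control 4 (-0.16).

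GstO2 (FBgn0035906, 3L:8521429-8523501), an omega member, was at 56.3, 58.4, 52.9, 57.1 and 56.0 CPM in neuronal overexpression, 63.6, 61.0, 61.2, 64.6 and 67.5 CPM in the nSyb-Gal4 control and 62.9, 66.8, 68.6, 66.1 and 62.8 CPM in the UAS control. Both controls lay together above the overexpression group. The log2 fold change was -0.18 ± 0.04 SE (q = 0.00781) against the nSyb-Gal4 control and -0.22 ± 0.04 SE (q = 0.000915) against the UAS control. The controls differed by -0.04 ± 0.04 SE (q = 0.496). Its neighbour GstO3, the most abundant omega gene, was at 60.4, 57.8, 59.3, 58.2 and 53.8 CPM in neuronal overexpression, 62.7, 58.4, 60.4, 64.9 and 76.0 CPM in the nSyb-Gal4 control and 76.4, 69.1, 76.1, 76.0 and 65.7 CPM in the UAS control. It was called lower against the UAS control (log2 fold change -0.33 ± 0.07 SE, q = 0.00129), and against the nSyb-Gal4 control its log2 fold change was -0.16 ± 0.07 SE (q = 0.130).

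GstT1 (FBgn0050000, 2R:9605988-9607184), a theta member, was the one gene higher than both controls. It was at 23.8, 26.7, 25.8, 27.2 and 28.9 CPM in neuronal overexpression, 19.7, 20.0, 19.5, 23.6 and 22.4 CPM in the nSyb-Gal4 control and 22.4, 20.3, 19.3, 20.6 and 20.5 CPM in the UAS control. The lowest overexpression library lay just above nSyb-Gal4 control 4. The log2 fold change was 0.33 ± 0.06 SE (q = 0.00186) against the nSyb-Gal4 control and 0.36 ± 0.06 SE (q = 0.000446) against the UAS control. GstT2, the next gene downstream on the same strand, was at 12.01 ± 1.43 CPM in neuronal overexpression, 10.8 ± 0.560 CPM in the nSyb-Gal4 control and 11.98 ± 1.057 CPM in the UAS control and was called in no comparison.

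**Figure D3:**
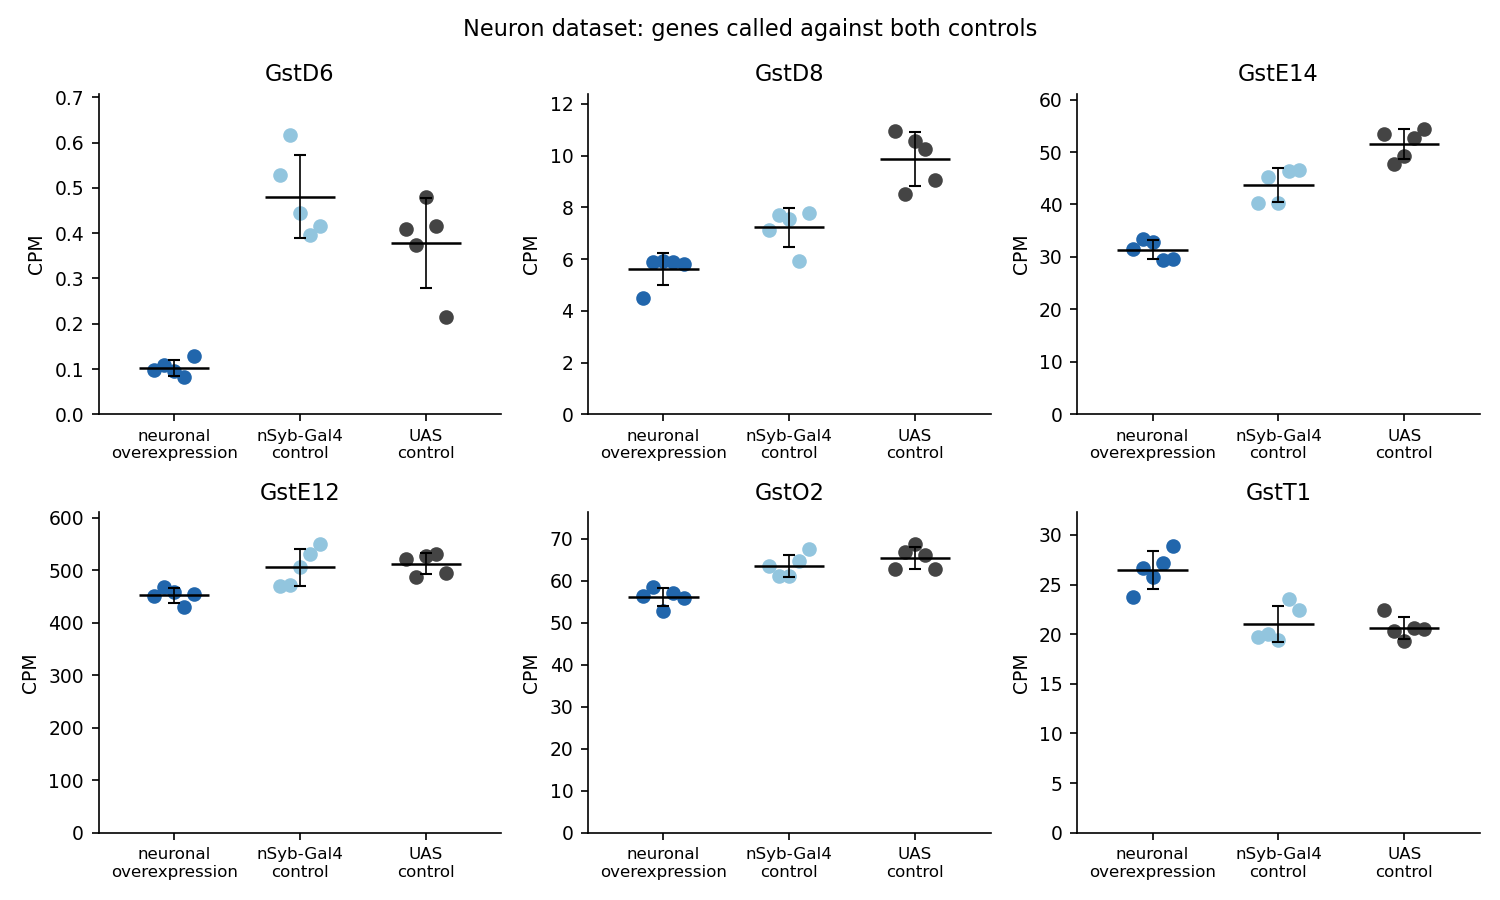
CPM per library (points) of the 6 genes called against both controls in the neuron dataset, with group mean (line) and SD (bars), n = 5 libraries each; each axis starts at 0. The overexpression points lie below all 10 controls in GstD6, GstD8, GstE14, GstE12 and GstO2 and above them in GstT1, with GstD8 and GstE12 the closest to their controls.

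More members differed from one control only. Against the nSyb-Gal4 control 11 of 32 were called, where the background was 16.5% of all genes tested. Of these 5 were higher (background 8.19%) and 6 lower (background 8.35%). Against the UAS control 17 of 32 were called (background 38.6%), with 7 higher (background 18.3%) and 10 lower (background 20.2%). The 2 controls differed from each other in 13 of 32 members (background 25.6%), 6 of them higher (background 11.8%) and 7 lower (background 13.8%) in the nSyb-Gal4 control. The 3 comparisons share libraries. The median log2 fold change of the 32 members was -0.01 relative to the nSyb-Gal4 control and -0.06 relative to the UAS control, beside -0.00 and -0.01 over all genes tested.

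A first set of members was called in neuronal overexpression and in the nSyb-Gal4 control, each against the UAS control, and not between neuronal overexpression and the nSyb-Gal4 control. A missing call does not show that these levels are equal. GstD1, the oxidative stress reporter gene (FBgn0001149, 3R:12367817-12369268), was at 367, 408, 368, 459.8 and 401 CPM in neuronal overexpression, 352, 362, 346, 438 and 387 CPM in the nSyb-Gal4 control and 276, 310.1, 314, 274 and 282 CPM in the UAS control. Every library with the driver was above every UAS control. Against the UAS control the log2 fold change was 0.46 ± 0.08 SE (q = 0.000237) in neuronal overexpression and 0.37 ± 0.08 SE (q = 0.00220) in the nSyb-Gal4 control, and between overexpression and the nSyb-Gal4 control it was 0.09 ± 0.08 SE (q = 0.512).

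GstZ2 (FBgn0037697, 3R:9456815-9460652), a zeta member, followed the same order with a wider gap. It was at 45.8, 47.0, 51.2, 53.7 and 53.2 CPM in neuronal overexpression, 46.4, 49.9, 41.9, 49.2 and 46.1 CPM in the nSyb-Gal4 control and 31.7, 32.7, 26.6, 27.99 and 31.7 CPM in the UAS control. Neuronal overexpression exceeded the UAS control by 0.74 ± 0.07 SE (q = 4.45e-07) on the log2 scale, and the nSyb-Gal4 control exceeded it by 0.63 ± 0.07 SE (q = 3.80e-06). Between neuronal overexpression and the nSyb-Gal4 control the change was 0.10 ± 0.07 SE (q = 0.336).

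GstT4 (FBgn0030484, X:13404749-13409323), the leading theta member, was at 109.4, 124.5, 124.6, 119.0 and 125.2 CPM in neuronal overexpression, 113.5, 117.9, 118.0, 158.7 and 122.2 CPM in the nSyb-Gal4 control and 95.8, 86.9, 88.0, 99.4 and 91.2 CPM in the UAS control. All 10 libraries with the driver were above the UAS control, with nSyb-Gal4 control 4 far above the rest. Measured from the UAS control, the log2 fold changes were 0.39 ± 0.08 SE (q = 0.00142) in neuronal overexpression and 0.45 ± 0.08 SE (q = 0.000706) in the nSyb-Gal4 control. GstD3 and GstD9 of the delta array had the same order, with 0.44 and 0.18 in neuronal overexpression and 0.41 and 0.17 in the nSyb-Gal4 control, all called. Between neuronal overexpression and the nSyb-Gal4 control the log2 fold changes were -0.06 ± 0.08 SE in GstT4, 0.03 ± 0.08 SE in GstD3 and 0.01 ± 0.04 SE in GstD9, none called. GstE4 went the other way, at 47.6 ± 4.41 CPM in neuronal overexpression, 49.5 ± 5.68 CPM in the nSyb-Gal4 control and 83.0 ± 9.19 CPM in the UAS control. The log2 fold changes were -0.80 ± 0.09 SE (q = 4.85e-06) and -0.75 ± 0.09 SE (q = 1.45e-05) against the UAS control, and it was at -0.05 ± 0.09 SE in neuronal overexpression relative to the nSyb-Gal4 control. The driver transgene and the strain that carries it cannot be told apart in these groups.

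GstE1 and GstE5, members of the epsilon block, lay between their controls. GstE1 (FBgn0034335, 2R:18398393-18399223) was at 79.7, 75.1, 71.1, 77.7 and 73.1 CPM in neuronal overexpression, 53.1, 66.4, 53.5, 61.3 and 65.5 CPM in the nSyb-Gal4 control and 114.6, 100.4, 103.2, 91.3 and 91.0 CPM in the UAS control. The 3 groups did not overlap. Its log2 fold change was 0.33 ± 0.07 SE (q = 0.00561) against the nSyb-Gal4 control and -0.41 ± 0.07 SE (q = 0.000544) against the UAS control. GstE5 (FBgn0063495, 2R:18404605-18405338) was at 6.57, 6.27, 6.31, 6.74 and 6.42 CPM in neuronal overexpression, 3.73, 4.47, 3.70, 4.71 and 4.34 CPM in the nSyb-Gal4 control and 10.09, 8.61, 8.23, 9.89 and 7.75 CPM in the UAS control. It had the same order with no overlap, at 0.62 ± 0.09 SE (q = 9.87e-05) against the nSyb-Gal4 control and -0.46 ± 0.08 SE (q = 0.000470) against the UAS control. The controls themselves differed by -0.74 ± 0.08 SE (q = 2.26e-06) in GstE1 and -1.09 ± 0.09 SE (q = 1.00e-07) in GstE5. Between these genes in the block, GstE2 and GstE3 were called in none of the 3 comparisons, and neither were GstE6, GstE8 and GstE9 beyond them.

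The other calls against a single control were GstD11 and GstT3 higher and GstD5 lower than the nSyb-Gal4 control, and GstE7 higher and GstE11 lower than the UAS control. GstD11 was at 10.5 ± 0.531 CPM in neuronal overexpression, 9.06 ± 0.350 CPM in the nSyb-Gal4 control and 11.4 ± 1.099 CPM in the UAS control. GstT3 was at 17.2 ± 1.51, 13.3 ± 1.498 and 15.1 ± 1.42 CPM in the same groups, with a log2 fold change of 0.37 ± 0.08 SE (q = 0.00551) against the nSyb-Gal4 control. GstD5, at 0.110 ± 0.0644, 0.318 ± 0.204 and 0.0913 ± 0.0544 CPM, is a gene of few reads. Its log2 fold change against the nSyb-Gal4 control was -1.53 ± 0.49 SE (q = 0.0426), and -1.04 without nSyb-Gal4 control 4. The call was lost in 9 of 15 fits without 1 library, and stayed without overexpression 1, nSyb-Gal4 control 1, 3 or 5, or UAS control 3 or 5. GstD5 was also higher in the nSyb-Gal4 control than in the UAS control, by 1.78 ± 0.51 SE (q = 0.0192), and by 1.29, not called, without nSyb-Gal4 control 4. GstD11 lost its call without overexpression 2 or 4 or without nSyb-Gal4 control 1, 4 or 5. Members called in no comparison of the neuron dataset were GstD2, GstD10, GstE2, GstE3, GstE6, GstE8, GstE9, GstO1, GstS1, GstT2 and GstZ1, and GstE13 was called between the controls alone, at -0.21 ± 0.07 SE, a call lost in 13 of 15 fits without 1 library.

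**Figure D4:**
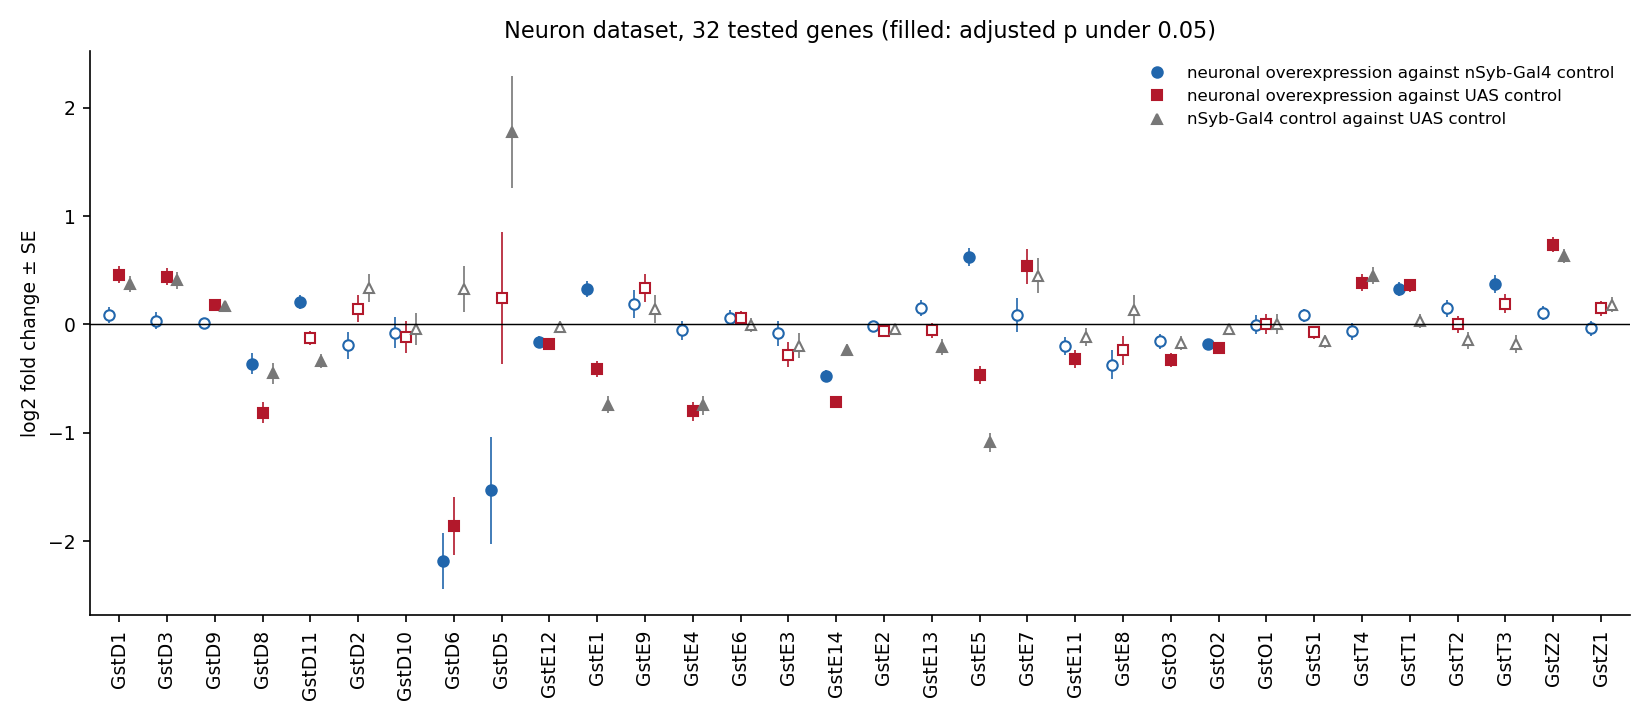
Log2 fold change ± SE of the 32 tested genes in the neuron dataset for neuronal overexpression against the nSyb-Gal4 control (circles), against the UAS control (squares) and for the nSyb-Gal4 control against the UAS control (triangles), ordered by class and level; filled symbols have an adjusted p under 0.05. GstD1, GstD3, GstT4, GstZ2 and GstE4 carry squares and triangles together away from 0, and GstE1 and GstE5 have circles and squares on opposite sides.

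By class these differences ran in different directions, so the family sum stayed level. The delta class summed to 485 ± 40.3 CPM in neuronal overexpression, 462 ± 40.8 CPM in the nSyb-Gal4 control and 369 ± 18.5 CPM in the UAS control, most of it GstD1. The epsilon class summed to 889 ± 23.3, 925 ± 73.4 and 1019 ± 35.2 CPM in the same order, and the omega class to 121 ± 3.34, 135 ± 9.89 and 145 ± 6.84 CPM. The theta class summed to 176 ± 9.61, 171 ± 20.1 and 139.9 ± 5.80 CPM, and the zeta class to 57.6 ± 3.55, 54.3 ± 2.92 and 36.8 ± 3.14 CPM. In the delta class 2 of 9 tested members were called lower than both controls, in the epsilon class 2 of 13, in the omega class 1 of 3, and in the theta class 1 of 4 was called higher, beside 5.44% of all genes called lower and 4.74% called higher.

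Markers of other head cells moved in the same comparison. Of 6 fat body markers, 1 (FASN1, fatty acid synthase) was called lower than both controls, and their summed level ran from 3300.0 to 5980.0 CPM in neuronal overexpression, 6320.0 to 9822 CPM in the nSyb-Gal4 control and 5379 to 6891 CPM in the UAS control. Of 7 glial markers 2 were lower (repo and Indy), with sums of 3562 to 3970.0, 4013 to 4375 and 3984 to 4192 CPM in the same order. Of 5 muscle markers 2 were lower (Mlc2 and Mhc), with sums of 6707 to 8812, 9519 to 10570.0 and 8953 to 10260.0 CPM. None of 6 neuronal, 5 photoreceptor, 4 hemocyte and 4 olfactory markers was called against both controls. Over all genes tested, 5.44% were called lower than both controls. Against the UAS control alone, the fat body markers were mixed, with 2 of 6 called higher and 1 lower. Of the other lists, 3 of 6 neuronal and 1 of 4 hemocyte markers were called higher in that comparison. Called lower were 3 of 7 glial, 3 of 5 muscle, 2 of 5 photoreceptor and 4 of 4 olfactory markers. The background there was 18.3% higher and 20.2% lower. The part of these cell types in the lower levels of GstD6, GstD8, GstE14, GstE12 and GstO2 was not tested.

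In the glia dataset 34 members were tested. GstD7, with 1 to 23 counts per library, was not. With all 15 libraries, 0 of 34 members were called by edgeR's quasi-likelihood test against the repo-Gal4 control (background 0.484% of 11149 genes tested), 0 against the UAS control (background 1.13%) and 0 against both (background 0.161%). Between the repo-Gal4 and the UAS control it was also 0 of 34 (background 0.888%), with 2 members at an unadjusted p under 0.05 (GstD5 and GstT4) and 1 called by DESeq2 (GstT4). For glial overexpression, an unadjusted p under 0.05 was reached by 1 member against the repo-Gal4 control (GstD6), by 3 against the UAS control (GstD6, GstD9 and GstE2) and by 1 against both (GstD6). DESeq2 called 1 (GstD6) against the repo-Gal4 control, 0 against the UAS control and 0 against both. For the counts at an unadjusted p and by DESeq2 the share of all genes is not given here. These counts therefore do not set the named members apart from other genes. The spread within groups was wide: the median coefficient of variation of the members was 56.6% in the UAS control and 29.9% in the repo-Gal4 control, against 15.1% in glial overexpression, and it was 8.09 to 10.9% in the neuron dataset. Its part in the number of calls was not tested.

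GstD6 was at 0.0953, 0.198, 0, 0.0855 and 0.130 CPM in glial overexpression, or 6, 14, 0, 5 and 11 counts. The repo-Gal4 control had 0.289, 0.513, 0.520, 0.340 and 0.396 CPM, and the UAS control had 0.280, 0.380, 0.336, 0.194 and 0.163 CPM. All 5 overexpression libraries were below the repo-Gal4 control and overlapped the lowest UAS controls. Its log2 fold change was -1.999 ± 0.55 SE (q = 0.218) against the repo-Gal4 control and -1.39 ± 0.55 SE (q = 0.413) against the UAS control. Without UAS control 2 and repo-Gal4 control 3 it was -1.89 ± 0.56 SE (q = 0.0634) and -1.22 ± 0.56 SE (q = 0.128), again not called.

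GstD9 (FBgn0038020, 3R:12366163-12367564), next to GstD1 in the delta array, was the one member whose overexpression libraries lay below all 10 controls. It was at 7.5, 8.42, 12.1, 8.58 and 10.92 CPM in glial overexpression, 13.7, 13.5, 29.8, 14.9 and 15.7 CPM in the repo-Gal4 control and 19.7, 91.3, 19.8, 18.4 and 17.7 CPM in the UAS control. The share of all genes that lay below all 10 controls in this way is not given here. The readings of 91.3 and 29.8 CPM in GstD9 belong to UAS control 2 and repo-Gal4 control 3. With all libraries its log2 fold change was -0.88 ± 0.45 SE (q = 1.000) against the repo-Gal4 control and -1.81 ± 0.46 SE (q = 0.0883) against the UAS control.

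Without UAS control 2 and repo-Gal4 control 3, the test called 6 of 34 members against both controls, or 17.6%, against 3.97% of 11129 genes tested. GstD1, GstE1, GstE5, GstE6 and GstO1 were higher (5 of 34, background 2.97%) and GstD9 was lower (1 of 34, background 1.01%). The libraries left out are controls, in which 34 and 32 of 35 members were above all others of their group. Leaving them out lowers the control means of most members. The counts without them are therefore no independent support for a higher level of the family. They were also picked by a slope measured in these same data. Against the UAS control alone 16 were called, 15 higher (background 17.2% in either direction and 11.8% higher), and against the repo-Gal4 control 6 (background 6.35%). Between the 2 controls 3 of 34 were called (background 4.35%). The median log2 fold change of the 34 members was then 0.15 relative to the repo-Gal4 control and 0.34 relative to the UAS control, beside 0.03 and 0.03 over all genes tested. With all 15 libraries these medians were 0.01 and 0.04, beside -0.02 and -0.09 over all genes tested.

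GstD9 averaged 9.50 ± 1.92 CPM in glial overexpression (n = 5), 14.5 ± 1.05 CPM in the repo-Gal4 control and 18.9 ± 1.04 CPM in the UAS control (n = 4 each). Its log2 fold change was -0.60 ± 0.12 SE (q = 0.00929) relative to the repo-Gal4 control and -0.98 ± 0.12 SE (q = 0.000170) relative to the UAS control. In the neuron dataset GstD9 was at 29.6 ± 1.60 CPM in neuronal overexpression, 29.4 ± 0.509 CPM in the nSyb-Gal4 control and 26.1 ± 1.08 CPM in the UAS control.

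GstD1 was at 337, 323, 399.5, 336 and 417 CPM in glial overexpression, 267.5, 305, 533, 303 and 297 CPM in the repo-Gal4 control and 213, 596, 218, 205 and 227 CPM in the UAS control. Apart from repo-Gal4 control 3 and UAS control 2, the groups came in 3 steps without overlap. Without those libraries it averaged 362 ± 42.5, 293 ± 17.4 and 216 ± 9.31 CPM, with log2 fold changes of 0.31 ± 0.08 SE (q = 0.0426) against the repo-Gal4 control and 0.76 ± 0.08 SE (q = 7.14e-05) against the UAS control. The repo-Gal4 control was then also above the UAS control, by 0.45 ± 0.09 SE (q = 0.00792), and the same held for GstT4 by 0.49 ± 0.08 SE (q = 0.00426) and GstE6 by 0.32 ± 0.06 SE (q = 0.00903). GstD1 and GstT4 were called higher than the UAS control in the Gal4 control of the neuron dataset too.

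GstE1 averaged 112 ± 16.9 CPM in glial overexpression, 79.6 ± 2.46 CPM in the repo-Gal4 control and 83.8 ± 8.64 CPM in the UAS control, again without the 2 libraries. The log2 fold changes were 0.50 ± 0.10 SE (q = 0.00916) and 0.43 ± 0.10 SE (q = 0.0112). GstE5, its fellow in the epsilon block, averaged 10.9 ± 1.42, 7.20 ± 0.357 and 7.15 ± 0.659 CPM, with 0.60 ± 0.10 SE (q = 0.00250) and 0.62 ± 0.10 SE (q = 0.00109). Both controls lay close together in these genes, unlike in the neuron dataset. GstE6 averaged 57.9 ± 4.95, 47.3 ± 2.39 and 38.1 ± 0.853 CPM, with 0.30 ± 0.06 SE (q = 0.00967) and 0.61 ± 0.06 SE (q = 2.96e-05). The omega gene GstO1 averaged 7.22 ± 0.704, 5.11 ± 0.397 and 4.31 ± 0.0980 CPM, with 0.51 ± 0.08 SE (q = 0.00314) and 0.76 ± 0.08 SE (q = 8.70e-05). With all libraries none of the higher genes was called: against the repo-Gal4 and the UAS control the log2 fold changes were 0.09 and 0.31 in GstD1, 0.30 and 0.12 in GstE1, 0.34 and 0.16 in GstE5, 0.10 and 0.21 in GstE6, and 0.26 and 0.28 in GstO1, with SE of 0.25 to 0.31.

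Glial overexpression 3 and 5, with length slopes of -0.24, held the 2 highest readings of their group in each of GstD1, GstD9, GstE1, GstE5, GstE6 and GstO1. With these 2 left out as well, GstE1, GstE5, GstE6 and GstO1 higher and GstD9 lower were called against both controls, 5 of 34 against a background of 2.62%, in a choice made after the data were seen. The same libraries gave 6 calls against the repo-Gal4 control (background 4.68%), 14 against the UAS control (background 11.8%) and 8 between the controls (background 7.84%). GstD1 was then at 0.18 ± 0.06 SE (q = 0.142) against the repo-Gal4 control. The 4 higher genes had smaller changes, from 0.22 in GstE6 to 0.47 in GstE5 against the repo-Gal4 control, and GstD9 a larger one, at -0.82 ± 0.08 SE (q = 0.000132). The part of transcript length in what remained was not tested.

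**Figure D5:**
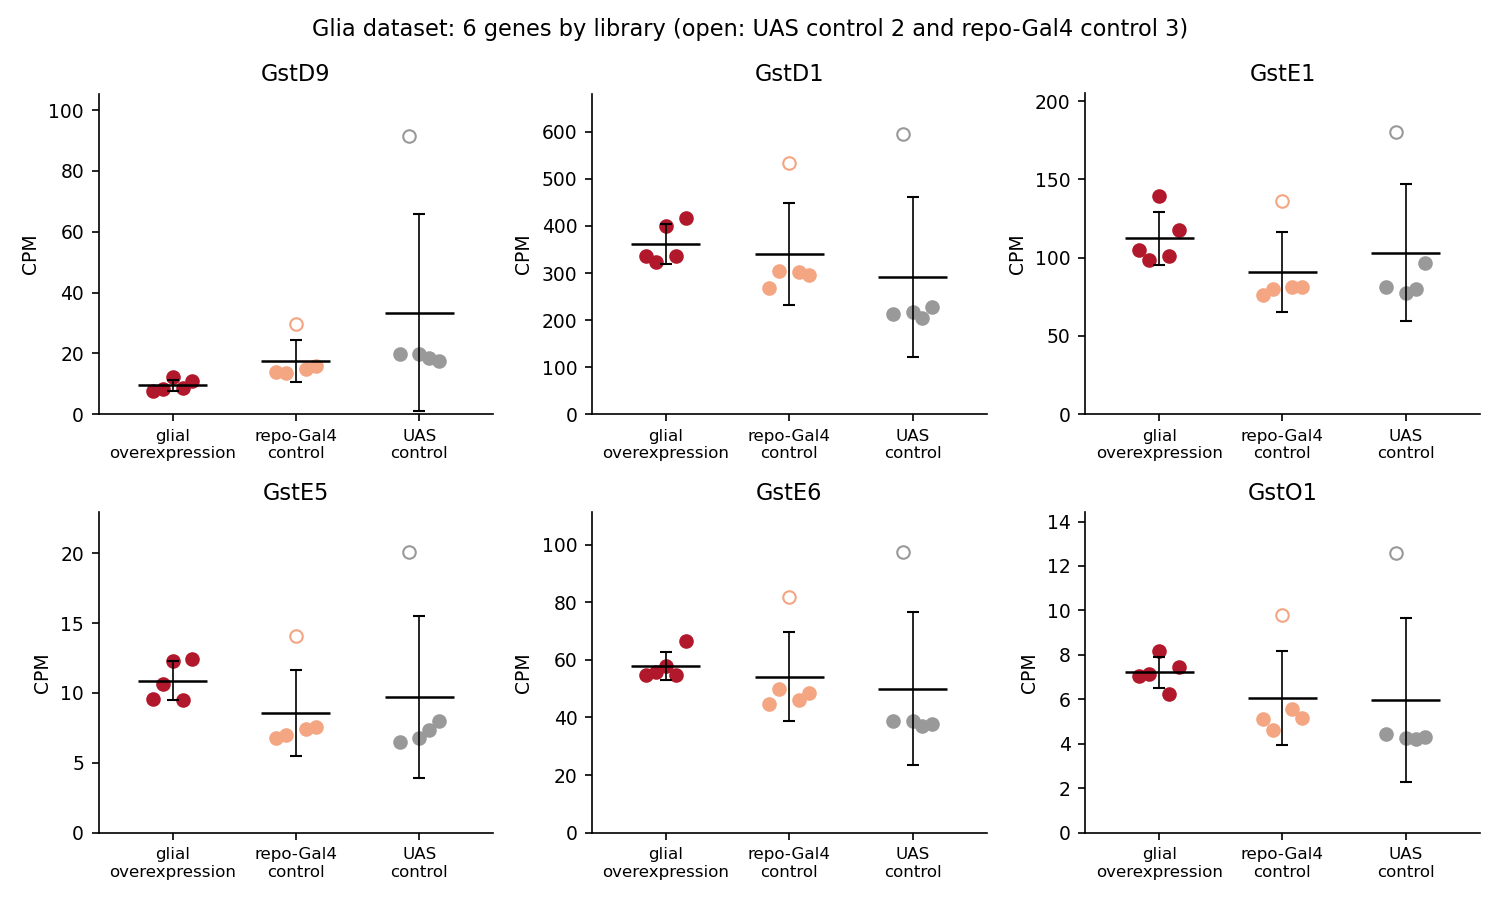
CPM per library (points) of 6 genes in the glia dataset, with the mean (line) and SD (bars) of all 5 libraries of each group; open points are UAS control 2 and repo-Gal4 control 3, and each axis starts at 0. GstD9 is below all controls in glial overexpression, while in GstD1, GstE1, GstE5, GstE6 and GstO1 overexpression lies above the filled control points and the open points lie above its mean.

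The summed level of the 6 neuronal markers ran from 1264 to 5044 CPM in glial overexpression (median 2137), 441 to 5719 CPM in the repo-Gal4 control (median 5253) and 362 to 5514 CPM in the UAS control (median 5309). With all libraries none of these neuronal markers was called in glial overexpression against either control. Libraries of this dataset differed in length slope, and the part of transcript length in these sums was not tested. The 6 fat body markers summed to 4129 to 6681 CPM in glial overexpression, 2747 to 10880.0 CPM in the repo-Gal4 control and 2300.0 to 9073 CPM in the UAS control. Without the 2 libraries, moody and wrapper were called higher and Indy lower than both controls among 7 glial markers. None of the markers of neurons, photoreceptors, fat body, muscle, hemocytes or olfactory sensilla was called against both controls, beside 3.97% of all genes tested. Against the UAS control alone, 1 of 6 fat body markers was called higher and 1 of 5 photoreceptor markers lower (background 17.2% in either direction). The part of these markers in the transferase levels was not tested.

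The glial and neuronal effects, each overexpression minus the mean of its controls, were compared in a fit of all 30 libraries. With all of them 1 of 34 members differed, GstZ2 at -0.39 ± 0.09 SE (q = 0.0285; background 1.1% of 11137 genes tested). GstZ2 was at 31.4, 30.4, 31.4, 30.2 and 33.0 CPM in glial overexpression, 29.9, 30.6, 31.4, 30.6 and 32.7 CPM in the repo-Gal4 control and 30.1, 31.1, 27.5, 29.4 and 28.8 CPM in the UAS control, all overlapping. Its level in neuronal overexpression and the nSyb-Gal4 control, given above, was higher than in any of these. The difference rested on the UAS controls: measured from the UAS controls alone it was -0.67 (q = 0.000278), and measured from the Gal4 controls alone -0.11 (q = 1). With UAS controls alone 2 of 34 members differed by edgeR, GstD9 and GstZ2 (background 2.13%), and with Gal4 controls alone 0 of 34 (background 0.242%), with 0 at an unadjusted p under 0.05. The call was lost without glial overexpression 4 (-0.37), neuronal overexpression 4 (-0.36) or neuronal overexpression 5 (-0.36).

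Without the 2 libraries of low slope 17 of 34 members differed between the effects (background 34.2%). The glial effect was higher in 15 (background 17.1%) and lower in 2, GstD9 and GstZ2 (background 17.2%), with GstZ2 at -0.36 ± 0.07 SE (q = 0.00127). In the same comparison all 6 neuronal markers tested were called lower, with a median log2 difference of -1.37. Without the same libraries, none of these markers was called in glial overexpression against the repo-Gal4 or the UAS control. Glial overexpression 3 and 5, with length slopes of -0.24, stayed in this fit. The part of transcript length in these markers, and their part in the transferase differences, was not tested. Without all 4 libraries 10 of 33 tested members differed (background 14.1%). The UAS controls, of 1 genotype in both datasets, differed in 1 of 34 members, GstS1, which was lower in the glia dataset, at -0.40 on the log2 scale (q = 0.0132, background 3.05%).

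Other genes of glutathione metabolism and detoxification were counted from lists chosen for their function, in the fits with all libraries. Of the glutathione synthesis genes 3 of 5 were tested, and Gclm, the modifier subunit of glutamate-cysteine ligase, was lower in neuronal overexpression than in both controls. It averaged 76.8 ± 6.49 CPM in neuronal overexpression, 91.3 ± 10.4 CPM in the nSyb-Gal4 control and 121.7 ± 9.70 CPM in the UAS control. The log2 fold changes were -0.25 ± 0.08 SE (q = 0.0409) and -0.66 ± 0.08 SE (q = 1.17e-05). Gclc, the catalytic subunit, was at 110.4 ± 5.11, 120.5 ± 4.95 and 107.4 ± 3.57 CPM and was not called against either control.

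Of 14 tested thioredoxin and antioxidant genes, 2 were lower than both controls and 1 higher in neuronal overexpression. The peroxiredoxin Prx2 had log2 fold changes of -0.23 and -0.28 and the glutaredoxin Grx1 of -0.25 and -0.37, against the nSyb-Gal4 and the UAS control, while Prx4, a peroxiredoxin, had 0.42 and 0.29. Of 24 tested UDP-glycosyltransferases, which attach sugars to foreign and endogenous molecules, Ugt35A1 (-0.69 and -0.65) and Ugt35B1 (-0.36 and -0.24) were lower and Ugt317A1 (0.40 and 0.71) and Ugt302K1 (0.71 and 0.59) higher. Of 6 ABC efflux transporters, Mdr49 was lower (-0.24 and -0.43). The CncC and Keap1 regulators, 0 of 3, and transferase relatives outside the naming rule, 0 of 5 (se, Mgstl, gfzf, eEF1gamma and Clic), had no call against both controls. Between 0 and 4 members of each list passed, in mixed directions, beside the 10.2% of all genes.

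In glial overexpression the one call against both controls in these lists with all libraries was Mdr65, an efflux transporter of the fly blood-brain barrier and 1 of 6 ABC transporters tested (background 0.161% of all genes). It averaged 186.1 ± 19.6 CPM in glial overexpression, 115.8 ± 10.4 CPM in the repo-Gal4 control and 119.6 ± 9.74 CPM in the UAS control. The log2 fold changes were 0.68 ± 0.14 SE (q = 0.0440) and 0.64 ± 0.14 SE (q = 0.0399). Without the 2 libraries of low slope, where the background was 3.97%, Mdr65 and rdog were higher than both controls among 6 ABC transporters, Mgstl (a microsomal transferase relative) among 5 relatives and Cat (catalase) among 14 thioredoxin and antioxidant genes. Of 25 UDP-glycosyltransferases Ugt37D1 was higher and Ugt35A1 and Ugt35E2 were lower, and none of the 3 glutathione synthesis genes and 3 regulators was called against both controls.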

How the data were processed

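The authors deposited raw read counts per gene for each of 30 libraries, made with STAR and HTSeq on build BDGP6, per the submitters' processing notes; versions, annotation release and strand setting are not given in the sources used here. Special counter rows and rows that are no gene were left out before scaling and testing. Counts in these rows made up 5.62 to 8.23% of each glia library and 9.02 to 10.5% of each neuron library. They include ambiguous reads and reads aligned to several places, the latter 1.67 to 2.42% and 4.60 to 6.13% of each library. Depth sets the counting error, while the spread between libraries sets the test.

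Counts were tested with edgeR 4.0.16 in R 4.3.3 (filterByExpr, TMM scaling, robust quasi-likelihood fit, Benjamini-Hochberg adjustment over all genes tested), 15 libraries and 3 groups per dataset; effects between datasets came from all 30 libraries. Standard errors follow from the F statistic. CPM are TMM-scaled and given as mean ± SD. Exon bases are the union of exons in Ensembl BDGP6.54. The fits were tested on simulated data. Alternatives were DESeq2 1.42.0, RLE size factors, no filter, a replicate block, all 6 groups in one fit, other controls, leaving out each library, and leaving out libraries of low length slope. The members and gene lists were chosen with earlier results of these data known. Library values are given for members called against both controls and for the leading member of each class, and the other genes named with library values were chosen after their values were seen. Of the listed genes, 1 (clot) had no match by symbol.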

Additional observations from a re-analysis of the deposited data

Results flagged for a closer look

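Readings far from the rest of their group gathered in a pair of libraries of the glia dataset. In UAS control 2 the highest value stood apart from the other 4 libraries in GstD1 (595.6 CPM), GstD8 (15.87 CPM), GstE12 (1146 CPM), GstE14 (160.7 CPM), GstO2 (108.0 CPM), GstO3 (157.1 CPM), GstS1 (86.46 CPM), GstT1 (50.76 CPM) and GstT4 (103.1 CPM), and in the sum of the family (3604 CPM). In repo-Gal4 control 3 the same held for GstD1 (532.9 CPM), GstE12 (621.9 CPM), GstE14 (79.47 CPM), GstO2 (80.14 CPM), GstO3 (81.61 CPM) and the sum (2477 CPM). These libraries have the lowest length slopes, -0.92 and -0.62, and the part of that slope in single readings was not tested. Over all members, 50 of 210 sets of 5 libraries held such a reading, 27 of them in UAS control 2 with another 15 in repo-Gal4 control 3. A chance rate of about 1 in 20 would hold for independent sets. Members of a group are read in the same 5 libraries, so that rate does not apply here. How many of all genes held such a reading is not given.

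Elsewhere, GstD8 was low in neuronal overexpression 1 (4.51 CPM), GstS1 was high in glial overexpression 5 (108.9 CPM) and GstT4 was high in nSyb-Gal4 control 4 (158.7 CPM). Among the members, the glial effect differed past the threshold from the neuronal one in GstZ2, by -0.39 on the log2 scale.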

How the results depend on the processing

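Counts of members called rested on the libraries and on the fit. The share of all genes called is given above for the main fits and for those without libraries of low length slope. For the other settings it is not given, so their counts do not show how the family fared beside all genes. With all 6 groups in one fit, which shares the wide spread of the glia dataset, the counts were 1 (glial overexpression against the repo-Gal4 control), 3 (against the UAS control), 1 (against both), 1 (repo-Gal4 against UAS control), 1 (neuronal overexpression against the nSyb-Gal4 control), 3 (against the UAS control), 1 (against both, GstD6) and 4 (nSyb-Gal4 against UAS control). DESeq2 called 1 member against the repo-Gal4 control and 1 between the glia controls. Without the 2 libraries of low length slope the glial counts were 6, 16, 6 and 3, and without 4 such libraries 6, 14, 5 and 8; the glial and neuronal effects differed in 17 and 10 members. They differed in 0 with no filter, 0 with the replicate block, 0 against the Gal4 controls and 2 against the UAS controls. Leaving out 1 library gave 0 to 1, 0 to 5, 0 to 1 and 0 to 2 members in the glia dataset, each highest without UAS control 2, 8 to 11, 16 to 19, 5 to 6 and 12 to 14 in the neuron dataset, and 0 to 2 between effects. No call made with all libraries reversed its direction in these settings. Uncalled directions did turn without the 2 libraries of low length slope: the log2 fold change of 8 of 34 members changed sign against the repo-Gal4 control, of 9 against the UAS control (GstD3 and GstE11 then called higher), of 9 between the glia controls and of 11 between effects (GstE12 and GstO3 then called). The family sum, lower in glial overexpression than in the UAS control with all libraries (1676 and 1794 CPM), was higher without them (1676 and 1342 CPM), and the median change between the glia controls was 0.11 in place of -0.10. Of 42 calls on single members, DESeq2 kept 42, RLE size factors 40, no filter 38 and the replicate block 38, while all 6 groups in one fit kept 8 of 41. Same-numbered libraries of different groups correlated at -0.78 to 0.66 (8 of 15 pairs over 0.1) in the glia dataset and -0.46 to 0.24 (1 of 15) in the neuron dataset. Pairs with different numbers ran from -0.80 to 0.88 (29 of 60 over 0.1) and from -0.18 to 0.27 (8 of 60). The medians for same and different numbers were 0.26 and 0.07 in the glia dataset and 0.02 and -0.00 in the neuron dataset. The ranges overlap, so this check cannot decide whether the numbers pair the samples. With the block the neuronal counts were 9, 18, 5 and 13, and the glial counts 0. The causes of these changes were not tested. Genes with few counts (GstD4 to GstD7 and GstE10) allow no fine comparison at this depth.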
